A study of Mus musculus with 6 samples.

Results

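Semaphorins and their plexin receptors were examined in RNA of sorted kidney ECs (CD31+, CD45-) from mice with and without an endothelial Cre acting on floxed Rbpj. The 10 genes Sema5a, Sema3c, Sema3f, Sema3g, Sema6a, Sema6b, Sema7a, Plxnd1, Plxna2 and Plxnb2 were taken by gene name from the 55401 genes of the deposited count table, and all 10 passed the filter on low counts. They were chosen with the difference between the genotypes already known and with Sema5a set against the rest, so their differences are given as a description and not as a test. The group CTRL held 3 replicates from male mice with the genotype Cre -/-; Rbpjf/f, and the group RbpjΔEC (RbpjDEC in the labels) 3 from male littermates with Cre +/-; Rbpjf/f, with 1 library per replicate. Both groups carried floxed Rbpj and received 5 tamoxifen doses of 1.5 mg at 8 weeks of age. Kidneys were harvested 12 weeks later, at a labelled age of 21 weeks. The tamoxifen-dependent Cre was driven by the Cdh5 promoter, which is active in ECs. The CTRL mice had no Cre, so loss of Rbpj and Cre activity itself cannot be told apart.

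Semaphorins are secreted or membrane-bound guidance proteins that share a sema domain and were first known from growing axons. Plexins are their main receptors and act inside the cell on small GTPases, while neuropilins are co-receptors that most class 3 semaphorins need. In vessels the secreted class 3 proteins and their receptor Plexin-D1 pattern sprouts. Rbpj encodes the DNA-binding protein through which Notch receptors act on their target genes.

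The promoter windows of the 3 members that were lower in each RbpjΔEC library than in each CTRL library are shown first, because Rbpj binds DNA at the core TGGGAA. Each window runs from 250 bases before to 50 bases after the RefSeq start of the gene (build GRCm38.p6), 5′ to 3′ on the strand of the gene, and capitals mark a match of TGGGAA or of its reverse complement TTCCCA. Sema5a is on the plus strand at chr15:32244563-32244862, Sema3g on the plus strand at chr14:31217623-31217922 and Sema7a on the plus strand at chr9:57939862-57940161.
Sema5a: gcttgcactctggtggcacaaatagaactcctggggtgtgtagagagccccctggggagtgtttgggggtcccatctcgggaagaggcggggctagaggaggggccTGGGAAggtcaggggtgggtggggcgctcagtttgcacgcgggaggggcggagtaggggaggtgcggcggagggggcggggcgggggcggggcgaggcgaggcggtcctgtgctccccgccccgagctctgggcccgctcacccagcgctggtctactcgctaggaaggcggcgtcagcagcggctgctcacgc
Sema3g: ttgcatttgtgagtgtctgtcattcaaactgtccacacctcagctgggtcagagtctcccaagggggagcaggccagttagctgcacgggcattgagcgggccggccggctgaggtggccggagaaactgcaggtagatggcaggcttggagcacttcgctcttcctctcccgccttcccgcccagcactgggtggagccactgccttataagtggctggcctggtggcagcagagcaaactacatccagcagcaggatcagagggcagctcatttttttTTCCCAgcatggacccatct
Sema7a: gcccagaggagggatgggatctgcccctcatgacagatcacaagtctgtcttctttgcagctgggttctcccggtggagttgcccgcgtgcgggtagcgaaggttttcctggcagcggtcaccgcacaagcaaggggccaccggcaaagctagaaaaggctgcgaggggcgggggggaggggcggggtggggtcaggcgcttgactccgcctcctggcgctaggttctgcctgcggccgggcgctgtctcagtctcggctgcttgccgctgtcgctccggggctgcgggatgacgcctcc
The match at Sema5a begins 144 bases before the start and the match at Sema3g 31 bases after it, on the opposite strand. Windows were searched for 8 of the 10 members (not Sema3f and Sema6a), and 3 of these had a match, the third being Plxnb2, whose counts overlapped between the groups. By window this was 3 of 10, since Sema6b and Plxnb2 had 2 windows each. Over all 32851 windows of this length, 25.6% held TGGGAA on either strand. The E-box CACGTG, the kind of site that Hey repressors can bind, was found in the windows of 0 of these 8 members and in 7.15% of all windows. A match of letters is a description and shows neither binding nor its absence.

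The libraries held between 39649171 and 47726850 counts on genes, and 3 counts, taken as the detection floor, corresponded to between 0.0634 and 0.0749 CPM (library-scaled counts, with edgeR's TMM factors). Pecam1, which encodes the sorted surface protein CD31, had between 1889 and 2324 CPM and Cdh5 between 1456 and 1934 CPM over the 6 libraries. The 6 T cell genes together stayed at or below 0.150 CPM. Rbpj had 29.2 ± 0.964 CPM in CTRL, compared with 28.2 ± 1.86 CPM in RbpjΔEC (SD, n = 3), and since its counts cover the whole gene they do not check the floxed part. The Notch target Hey1 was lower in each RbpjΔEC library (19.7 ± 2.93 against 11.7 ± 2.83 CPM, SD, n = 3), with an adjusted p of 0.0722 by the quasi-likelihood F test of edgeR after Benjamini-Hochberg (BH) adjustment. More genes had counts in CTRL 1 (33764) than in the remaining 5 libraries (25629 to 26785). In sorted bulk RNA, fewer cells of a type and less RNA per cell cannot be told apart.

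Sema5a encodes a membrane semaphorin of class 5, which carries thrombospondin repeats beside the sema domain and binds sulfated proteoglycans. The gene (ENSMUSG00000022231.10) lies on the plus strand of chromosome 15 of GRCm38 from 32244810 to 32696341, with 18.7 kb of exon. Values of the 3 libraries of a group are given in the order of replicates 1 to 3. Sema5a had 82.0, 88.5 and 84.9 CPM in the 3 CTRL libraries, against 51.2, 43.7 and 48.2 CPM in the 3 RbpjΔEC libraries. These values rest on 3286, 4191 and 3584 reads in CTRL and on 2295, 1832 and 1931 reads in RbpjΔEC. The groups did not overlap, and each RbpjΔEC library had between 0.493 and 0.625 of the level of any CTRL library. The mean was 85.1 ± 3.30 CPM in CTRL, compared with 47.7 ± 3.78 CPM in RbpjΔEC (SD, n = 3), a log2 fold change of -0.84 with a standard error of 0.0788. Sema5a was thus 44.0% lower by the group means. It was the 1 member of the 10 past an adjusted p of 0.05 by edgeR's quasi-likelihood F test, BH-adjusted over 18438 tested genes, of which 1.13% passed. As the members were chosen from this contrast, nothing is read from that count. Leaving out each library in turn gave log2 fold changes of Sema5a between -0.89 and -0.78.

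**Figure D1:**
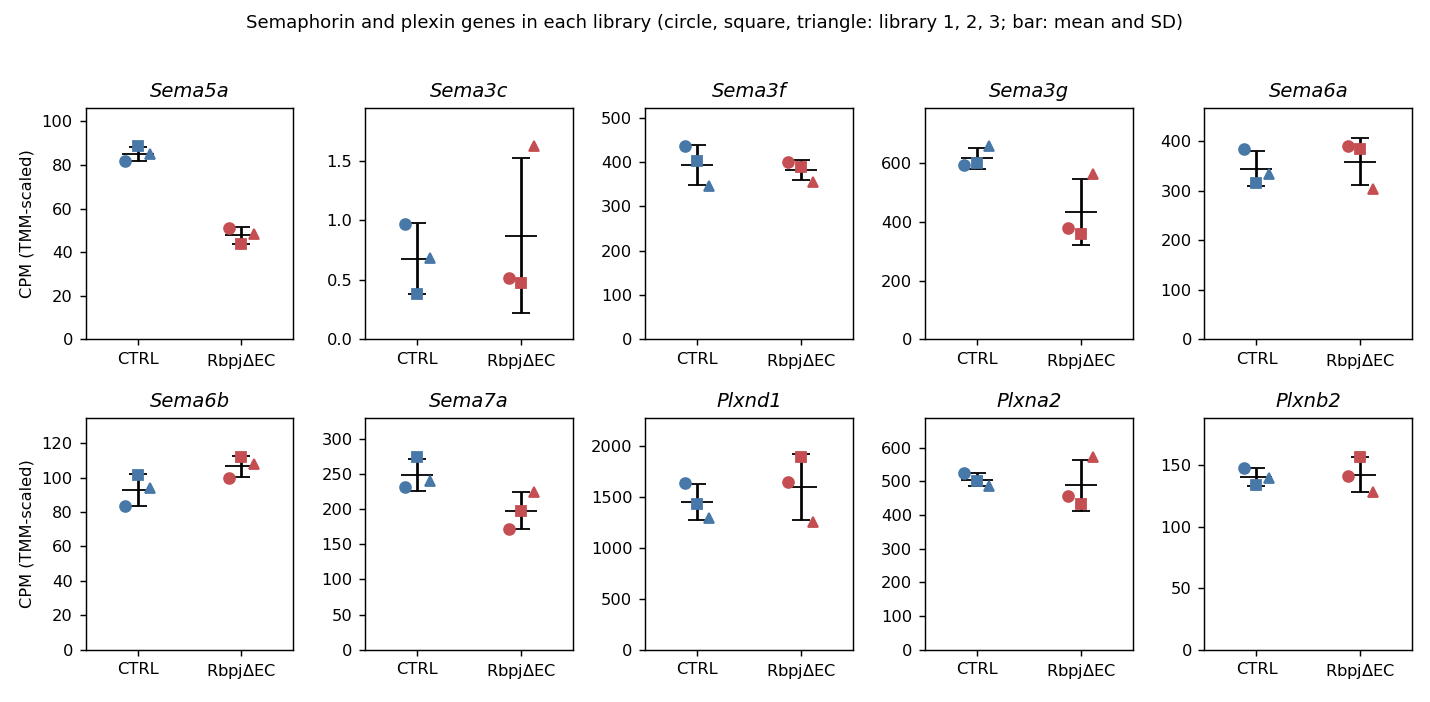
CPM (TMM-scaled, linear axis from 0) of the 10 members in the 3 CTRL (blue) and 3 RbpjΔEC (red) libraries; the symbol gives the library number and the black bars the mean and SD. Sema5a lies between 82.0 and 88.5 CPM in CTRL and between 43.7 and 51.2 CPM in RbpjΔEC, and the Sema3g value of RbpjΔEC 3 (562 CPM) lies near the CTRL values.

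The secreted semaphorins of class 3 among the members did not move together. Sema3g, which encodes a ligand of neuropilin-2 and is known from arterial endothelium and podocytes, lies on chromosome 14 of GRCm38 from 31217860 to 31230352. It had 594, 599 and 657 CPM in the 3 CTRL libraries, against 381, 358 and 562 CPM in the 3 RbpjΔEC libraries. The groups did not overlap, but RbpjΔEC 3 stood much nearer to CTRL than RbpjΔEC 1 and 2. The log2 fold change was -0.51 (standard error 0.166), and leaving out 1 library gave values from -0.74 (without RbpjΔEC 3) to -0.39 (without RbpjΔEC 2). Sema3g did not pass the threshold in edgeR's quasi-likelihood test as used here, but passed without RbpjΔEC 3, with no low-count filter, with the replicate number as a block and in DESeq2's Wald test. RbpjΔEC 3 also stood above RbpjΔEC 1 and 2 in both sets of tubule genes, which went opposite ways only against CTRL. The 3 proximal tubule genes Lrp2, Slc34a1 and Kap summed to 264 CPM in RbpjΔEC 3, above the 27.7 to 90.1 CPM of the other 5 libraries. The 7 other tubule genes summed to 182 CPM there, above the 111 and 57.9 CPM of RbpjΔEC 1 and 2 and below the 234 to 442 CPM of CTRL. The part of these genes in the Sema3g value was not tested.

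Sema3f, another ligand of neuropilin-2, had 435, 402 and 346 CPM in the 3 CTRL libraries, against 400.4, 388 and 356 CPM in the 3 RbpjΔEC libraries. Its groups overlapped throughout, with a log2 fold change of -0.05 (standard error 0.0891). Sema3c, whose protein acts through neuropilins and Plexin-D1, was low, with 39, 18 and 29 reads in CTRL and 23, 20 and 65 reads in RbpjΔEC. This came to 0.680 ± 0.296 CPM (SD, n = 3) and 0.871 ± 0.651 CPM (SD, n = 3), and 1 library, RbpjΔEC 3, held the high value. Its log2 fold change of 0.36 had a standard error of 0.543 and turned to -0.45 without RbpjΔEC 3, so that no difference of Sema3c was detectable at this depth.

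Of the membrane-bound semaphorins, Sema7a, which is anchored by glycosylphosphatidylinositol and binds Plexin-C1 and beta1 integrins, was the third member without overlap. The gene lies on chromosome 9 of GRCm38 from 57940112 to 57962865. It had 231, 274 and 239.6 CPM in the 3 CTRL libraries, against 172, 198 and 224 CPM in the 3 RbpjΔEC libraries, a log2 fold change of -0.33 (standard error 0.101). The highest RbpjΔEC value was close to the lowest CTRL value. Sema7a did not pass the threshold of edgeR's test as used here, but passed without RbpjΔEC 3 and with no low-count filter.
The class 6 semaphorins, transmembrane ligands of class A plexins, did not share this direction. Sema6a had 384, 316 and 333 CPM in the 3 CTRL libraries, against 389, 383 and 304 CPM in the 3 RbpjΔEC libraries, with overlapping groups and a log2 fold change of 0.06 (standard error 0.106). Sema6b had 83.2, 101 and 94.1 CPM in the 3 CTRL libraries, against 99.5, 112 and 108 CPM in the 3 RbpjΔEC libraries. CTRL 2 lay above RbpjΔEC 1, and the log2 fold change of Sema6b was 0.20 (standard error 0.0842) and 0.12 without CTRL 1.

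The 3 plexin members overlapped between the groups. Plxnd1, which encodes the plexin most tied to endothelium, had 1633, 1427 and 1288 CPM in the 3 CTRL libraries, against 1649, 1893 and 1250.2 CPM in the 3 RbpjΔEC libraries. Both the highest and the lowest of the 6 values were RbpjΔEC libraries, and the log2 fold change of 0.14 (standard error 0.150) was within that spread, with 0.29 without RbpjΔEC 3 and 0.00084 without RbpjΔEC 2. Plxna2, a receptor of class 6 semaphorins, had 526, 501 and 487 CPM in the 3 CTRL libraries, against 457, 434 and 573 CPM in the 3 RbpjΔEC libraries, a log2 fold change of -0.05 (standard error 0.0990). Plxnb2, a receptor of class 4 semaphorins, had 148, 134 and 139.7 CPM in the 3 CTRL libraries, against 141, 157 and 128 CPM in the 3 RbpjΔEC libraries, a log2 fold change of 0.02 (standard error 0.0820). For each plexin the RbpjΔEC values reached above and below the CTRL values.

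Over the 10 members the median log2 fold change was -0.01, against 0.01 over all tested genes, with 5 members higher and 5 lower. Without overlap between the groups were 3 members, all lower, where 11.6% of all tested genes were lower and 11.4% higher without overlap. The 7 semaphorin members together had 1756 to 1811 CPM in CTRL and 1483 to 1603 CPM in RbpjΔEC. Without Sema5a the other 6 still had 1671 to 1729 CPM against 1440 to 1555 CPM, a difference carried by Sema3g and Sema7a. The 3 plexin members together had 1915 to 2307 CPM in CTRL and 1952 to 2484 CPM in RbpjΔEC.

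Sema5a was set against the rest of the group within each library, which removes the scaling between libraries. The log2 ratio of Sema5a to the summed CPM of the other 9 members was -5.62, -5.41 and -5.40 in the 3 CTRL libraries, against -6.17, -6.49 and -6.19 in the 3 RbpjΔEC libraries. The ratio was lower in each RbpjΔEC library than in each CTRL library, by 0.81 in the group means with a pooled SD of 0.155 between libraries. Sema5a made up 4.53%, 4.97% and 4.83% of the CPM of the 7 semaphorin members in the 3 CTRL libraries, against 3.43%, 2.94% and 3.01% in the 3 RbpjΔEC libraries. With length-scaled levels, with all other tested semaphorin and plexin genes or with the mean of log2 CPM in place of the sum, the difference was between -0.82 and -0.75. These values come from the contrast that chose the gene and are not tested.

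**Figure D2:**
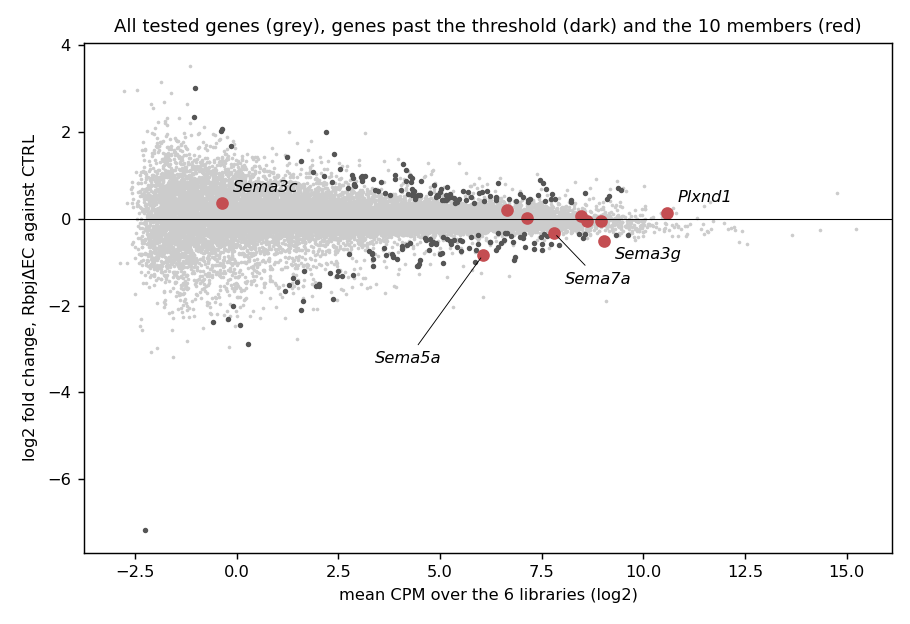
Log2 fold change (RbpjΔEC against CTRL) of all 18438 tested genes by their mean CPM over the 6 libraries (log2 axis), with genes past an adjusted p of 0.05 in dark grey and the 10 members in red, 5 of them named. Sema5a (-0.84) lies among the dark points, Sema3g (-0.51) and Sema7a (-0.33) below 0, and the other named members near 0 or, for Sema3c, among genes of few counts.

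Levels of different genes were compared per kb of exon. Plxnd1 stood highest among the members in CTRL with 199 ± 23.7 CPM per kb (SD, n = 3), followed by Sema3g with 136 ± 7.72, Sema3f with 75.9 ± 8.67 and Sema7a with 75.3 ± 6.94 CPM per kb. Sema3f and Sema7a overlapped and were the only neighbours in this order that did so in CTRL. Sema6a had 39.2, Plxna2 29.4, Sema6b 23.4 and Plxnb2 18.2 CPM per kb. Sema5a stood ninth, with 4.56 ± 0.176 CPM per kb in CTRL and 2.55 ± 0.203 in RbpjΔEC (SD, n = 3), and Sema3c last with 0.0952 CPM per kb. The order of the 10 mean levels was the same in RbpjΔEC, where the neighbours Plxna2 and Sema6b overlapped. Among all 30 tested semaphorin, plexin and neuropilin genes Sema5a stood at position 16 in CTRL.

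**Figure D3:**
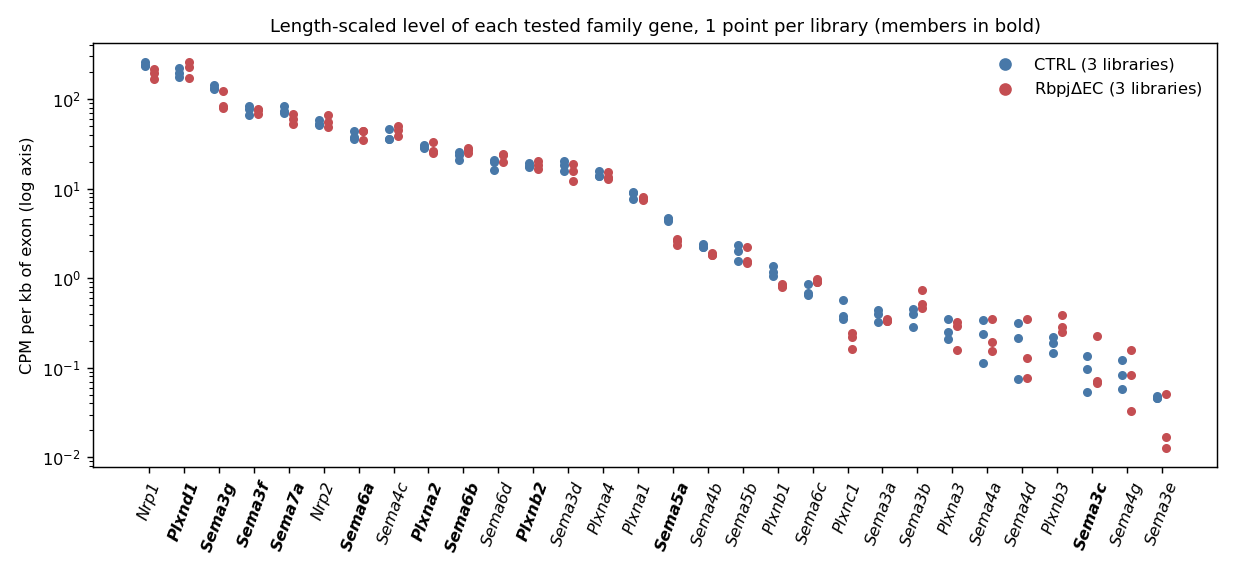
CPM per kb of exon (log axis) of the 30 tested semaphorin, plexin and neuropilin genes, ordered by the CTRL mean, with 1 point per CTRL (blue) and RbpjΔEC (red) library and the members in bold. Nrp1 and Plxnd1 lie highest, at 245 and 199 CPM per kb in CTRL, and Sema5a lies at 4.56 in CTRL and 2.55 in RbpjΔEC with no overlap.

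The remaining genes of the family were read from the same fit. Of 21 other semaphorin, plexin and neuropilin genes 20 were tested, and Sema4f, with 6 reads in CTRL 1, 3 in RbpjΔEC 3 and 0 in the others, was not. Of the 20, 0 passed an adjusted p of 0.05 by edgeR after BH adjustment. At an unadjusted p under 0.05, 2 were higher and 4 lower, where 8.88% and 8.62% of all tested genes were. Without overlap 3 were higher (Plxnb3, Sema3b and Sema6c) and 4 lower (Nrp1, Plxnb1, Plxnc1 and Sema4b). Of all tested genes 11.4% were higher and 11.6% lower without overlap. DESeq2's Wald test called Nrp1 and Plxnc1 lower. The median log2 fold change of the 20 was -0.09.
Nrp1, the co-receptor of class 3 semaphorins and of VEGF, had 2310, 2369 and 2523 CPM in the 3 CTRL libraries, against 1905, 2112 and 1633 CPM in the 3 RbpjΔEC libraries, with no overlap. It differed by a log2 fold of -0.35 (standard error 0.0957, adjusted p = 0.0975 by edgeR after BH adjustment). Nrp2, through which Sema3f and Sema3g act, had 642 ± 50.6 CPM in CTRL, compared with 675 ± 101 CPM in RbpjΔEC (SD, n = 3), and its groups overlapped.

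Among the other plexins, Plxna4, Plxna1 and Plxnb1 had the highest levels per kb. Plxna4 (log2 fold change -0.06) and Plxna1 (-0.15) overlapped between the groups, while Plxnb1, which encodes a receptor of Sema4d, had 11.5 ± 1.39 CPM in CTRL, compared with 7.98 ± 0.287 CPM in RbpjΔEC (SD, n = 3) without overlap. Its adjusted p was 0.0820 by edgeR after BH adjustment. Plxnc1, the receptor of Sema7a, had 4.74, 2.89 and 3.20 CPM in the 3 CTRL libraries, against 2.03, 1.33 and 1.85 CPM in the 3 RbpjΔEC libraries. Its values did not overlap, and its log2 fold change of -1.05 (standard error 0.274) had an adjusted p of 0.0858 by edgeR after BH adjustment. Plxnb3, which encodes a receptor of Sema5a, was present at only 1.20 ± 0.237 CPM in CTRL, compared with 2.00 ± 0.470 CPM in RbpjΔEC (SD, n = 3), with an adjusted p of 0.235 by edgeR after BH adjustment.
The other semaphorins with the highest levels per kb were Sema4c, Sema6d and Sema3d. They had log2 fold changes of 0.19, 0.26 and -0.22, and 0 of these 3 passed the threshold. Exons of Sema4c, Plxna1, Plxnb1 and Plxna4 share 334, 970, 257 and 110 bases with genes on the opposite strand. Their counts are uncertain where strand was not used. Sema5b, the other gene of class 5, had 14.0 ± 2.88 CPM in CTRL, compared with 12.4 ± 2.99 CPM in RbpjΔEC (SD, n = 3), with overlapping groups and a log2 fold change of -0.17 (standard error 0.192).

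**Figure D4:**
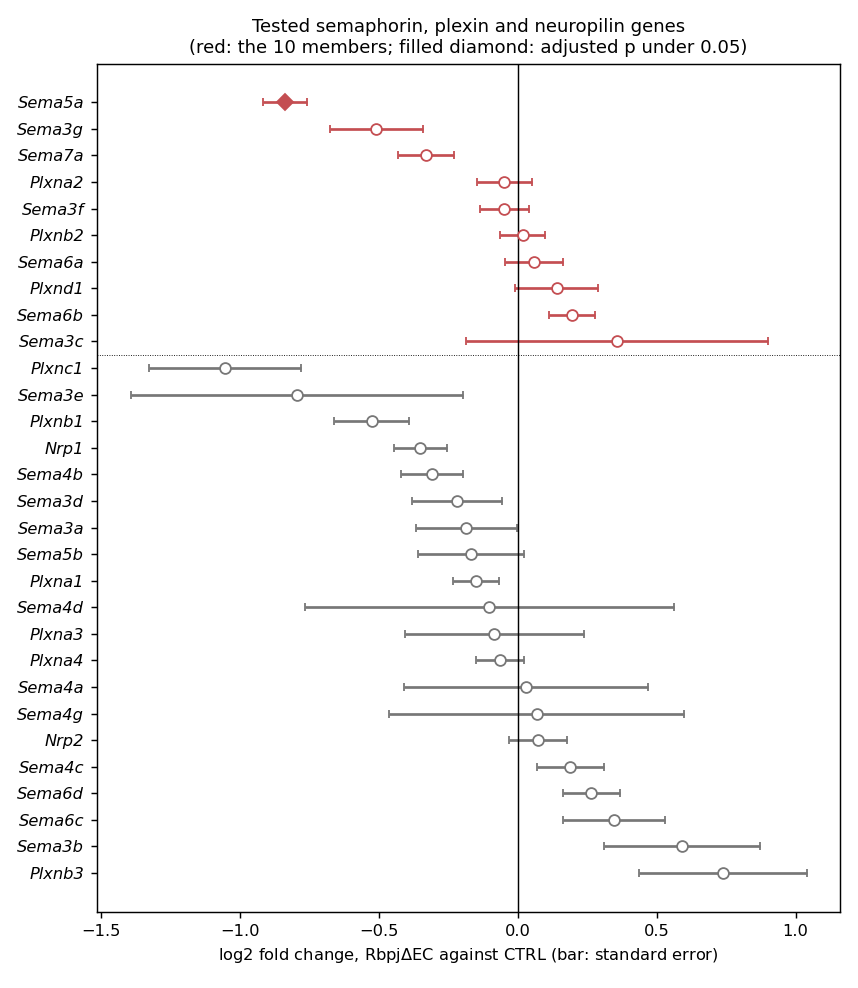
Log2 fold change of each tested family gene, RbpjΔEC against CTRL, with its standard error as a bar; the 10 members are in red above the dotted line and the 20 other semaphorin, plexin and neuropilin genes in grey below it. Sema5a at -0.84 is the only filled diamond (adjusted p under 0.05), and Plxnc1 (-1.05) lies further from 0 with a wider bar.

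Of 52 listed genes that act with semaphorins and plexins, 48 were tested. The median log2 fold change was -0.11, with 13 genes higher and 35 lower. Past the adjusted threshold were 1 higher and 2 lower, where 0.575% and 0.559% of all tested genes passed. Rnd1, a small GTPase that binds plexins and helps to activate them, rose from 44.8 ± 2.93 to 63.1 ± 8.02 CPM (SD, n = 3), with 47.9, 42.1 and 44.3 CPM in the 3 CTRL libraries, against 68.2, 67.1 and 53.8 CPM in the 3 RbpjΔEC libraries. The rise was 0.49 on the log2 scale (standard error 0.0983, adjusted p = 0.0402 by edgeR after BH adjustment). Met, a receptor tyrosine kinase that associates with class B plexins, had 22.4, 20.5 and 22.6 CPM in the 3 CTRL libraries, against 16.2, 12.8 and 13.8 CPM in the 3 RbpjΔEC libraries. It fell by 0.62 on the log2 scale (standard error 0.111, adjusted p = 0.0273 by edgeR). Pcsk5, a proprotein convertase, fell from 88.7 ± 10.1 to 61.4 ± 4.84 CPM (SD, n = 3), a log2 fold change of -0.53 (adjusted p = 0.0239 by edgeR). None of the 3 calls held without each library in turn. Rnd1 was not called without CTRL 1, CTRL 2, CTRL 3, RbpjΔEC 1 or RbpjΔEC 2, Met not without CTRL 1, CTRL 3, RbpjΔEC 1 or RbpjΔEC 2, and Pcsk5 not without CTRL 3, RbpjΔEC 1 or RbpjΔEC 2, whereas 6 pathway genes passed without CTRL 2.

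Marker lists of endothelial types and of other cells were read beside Sema5a. The 8 listed genes of glomerular endothelium were all lower in RbpjΔEC, 7 of them without overlap, with a median log2 fold change of -0.66, and Pi16, Gata5, Lpl and Tbx3 passed the adjusted threshold in edgeR, where 0.559% of all tested genes did so in this direction. Their summed level was 2143 to 2649 CPM in CTRL and 1450 to 1877 CPM in RbpjΔEC. Relative to this sum, the log2 ratio of Sema5a was -4.71, -4.90 and -4.94 in the 3 CTRL libraries, against -4.82, -5.05 and -5.28 in the 3 RbpjΔEC libraries, so that the groups overlapped. The difference of Sema5a was then -0.20, with a pooled SD of 0.184, in place of -0.84, and it was -0.18 against the mean log2 CPM of the 8 genes, which weights them equally.
Of 12 arterial genes, Hey1 among them, 10 were lower, 8 of them without overlap (11.6% of all tested genes), with a median of -0.58, and Fbln5 was past the threshold (0.559% of all tested genes). Dll4 went the other way without overlap, with 442 to 506 CPM in CTRL and 521 to 575 CPM in RbpjΔEC. The arterial sum, most of which came from Efnb2 and Dll4, was 1910 to 2052 CPM in CTRL and 1781 to 1907 CPM in RbpjΔEC, and Sema5a relative to it differed by -0.73. Against the mean log2 CPM of the 12 genes the difference of Sema5a was -0.34. Relative to the sum of 14 pan-endothelial genes (27313 to 30132 CPM in CTRL, 24953 to 25129 CPM in RbpjΔEC) the difference was -0.62, and -0.69 against their mean log2 CPM. Of 10 tested mural genes 9 were lower, 7 of them without overlap (11.6% of all tested genes), with a median of -1.03. Acta2, Myh11 and Rgs5 were past the threshold (0.559% of all tested genes). Kcnj8 went the other way without overlap, with 9.65 to 12.3 CPM in CTRL and 14.3 to 30.3 CPM in RbpjΔEC. The sum of the 11 listed mural genes was 258 to 304 CPM in CTRL and 213 to 238 CPM in RbpjΔEC, and relative to it Sema5a differed by -0.51. Mylk alone made up most of that sum. Without Mylk the mural sum was 96.6 to 124 CPM in CTRL and 63.6 to 71.2 CPM in RbpjΔEC, and Sema5a relative to it differed by -0.17 (pooled SD 0.203). Against the mean log2 CPM of the 10 tested mural genes the difference of Sema5a was -0.03 (pooled SD 0.230). These comparisons were chosen after the values were seen, and the part of these cell types in the Sema5a difference was not tested.
Of the podocyte markers, Nphs1, which encodes nephrin, stayed at or below 2.98 CPM, while Podxl, which ECs also express, had 2984 to 3378 CPM in CTRL and 2399 to 2680 CPM in RbpjΔEC, and their part in the Sema3g value was not tested. The 8 fibroblast genes summed to 4.75 to 7.08 CPM in CTRL and 1.54 to 2.94 CPM in RbpjΔEC, 1 of them without a count in any library. Only 3 were tested, all lower without overlap (11.6% of all tested genes). Pdgfra was past the threshold (0.559% of all tested genes).
Of the venous genes Vwf, which encodes von Willebrand factor, fell from 51.9 to 66.8 CPM in CTRL to 32.9 to 35.3 CPM in RbpjΔEC (adjusted p = 0.00691 by edgeR after BH adjustment), while the median of the 7 tested was -0.05. The 8 macrophage genes summed to 18.3 to 23.1 CPM in CTRL and 25.5 to 30.6 CPM in RbpjΔEC. Cd68 was called higher and Mrc1 lower, where 0.575% and 0.559% of all tested genes were. Cd68 alone made that sum higher, since the other 7 summed to 5.98 to 16.1 CPM in CTRL and 3.15 to 5.54 CPM in RbpjΔEC, and of the 5 tested 4 were lower, with a median of -1.25. The 6 tested lymphatic genes had a median of -0.94 and the 2 renin cell genes of -1.24, with 0 called by edgeR in either list. Without overlap 3 of the lymphatic genes were lower and 1, Prox1, higher (7.88 to 9.73 CPM in CTRL, 9.83 to 10.7 CPM in RbpjΔEC). Flt4, with 597 to 682 CPM over the 6 libraries, had a log2 fold change of 0.01. The sum of the 7 listed lymphatic genes overlapped, with 633 to 737 CPM in CTRL and 655 to 689 CPM in RbpjΔEC. At an unadjusted p under 0.05, 4 of the lymphatic and 1 of the renin cell genes were lower, where 8.62% of all tested genes were. The part of these lists in the Sema5a difference was not tested.

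**Figure D5:**
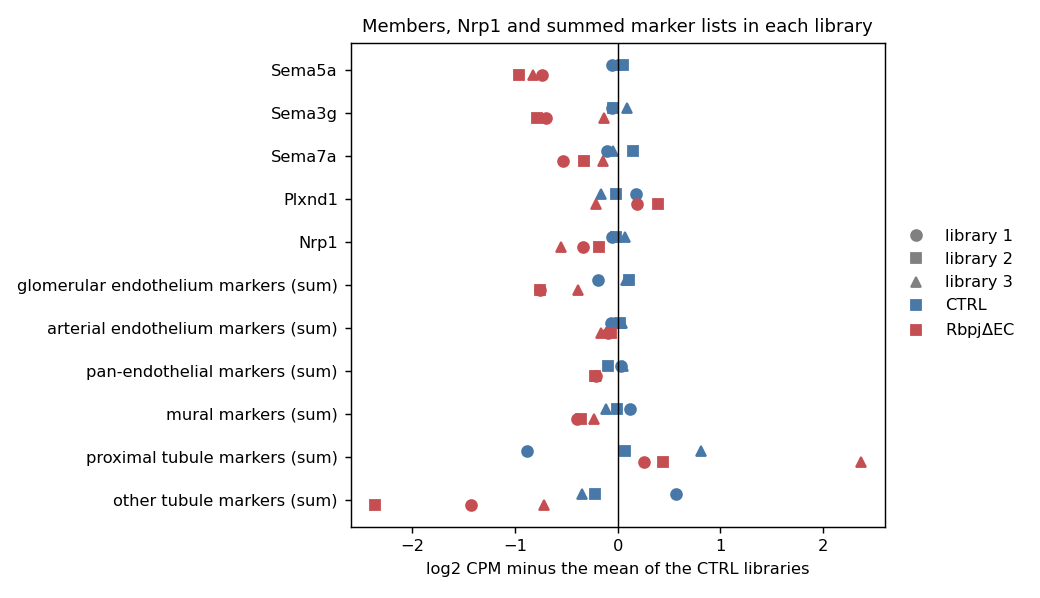
Log2 CPM in each library minus the mean of the 3 CTRL libraries, for 4 members, Nrp1 and 6 sums of marker genes, with CTRL in blue, RbpjΔEC in red and the symbol giving the library number. All items but Plxnd1 and the proximal tubule sum lie to the left of 0 in all 3 RbpjΔEC libraries. Sema3g lies nearer to CTRL in RbpjΔEC 3 than in RbpjΔEC 1 and 2. The proximal tubule sum of RbpjΔEC 3 lies above all CTRL libraries while its other tubule sum lies below them.

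The genes with the profile most like that of Sema5a over the 6 libraries, among 10433 genes with a mean of at least 5 CPM, were Atp2a3 (Pearson r = 0.995 of log2 CPM), Fam81a (0.994), Dach1 (0.992), Tgfb2 (0.992) and Sipa1l2 (0.991). Tgfb2, which encodes a TGF-beta ligand, went from 77.1 to 38.6 CPM and Atp2a3, which encodes a calcium pump, from 197 to 122 CPM. The most opposite profiles were those of Csrnp2 (r = -0.989), Lrrc56 (-0.986), Dusp5 (-0.985), Cbx8 (-0.982) and Dnase2a (-0.982). The 6 points fall into the 2 genotypes, so any gene that differs evenly between them has a high r, and no p is given. Within the members, Sema3g (r = 0.80) and Sema7a (0.76) followed Sema5a most closely and Sema6b (-0.71) least.

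The 4 tested genes nearest to Sema5a on chromosome 15, with 2 on each side, were examined next. Snhg18, a noncoding RNA gene that starts 0.148 kb away on the opposite strand, had 1.10, 1.06 and 0.805 CPM in the 3 CTRL libraries, against 0.401, 0.405 and 0.599 CPM in the 3 RbpjΔEC libraries. Its groups did not overlap, on 34 to 50 reads in CTRL and 17 to 24 reads in RbpjΔEC. The log2 fold change of -1.07 (standard error 0.387) did not pass, with an adjusted p of 0.181 by edgeR after BH adjustment. The promoter windows of Snhg18 and Sema5a share 250 bases, including the TGGGAA match printed above. On the other side, Sdc2, which encodes a heparan sulfate proteoglycan and lies 224 kb away, had a log2 fold change of -0.79 on 2.48 ± 0.285 CPM in CTRL, compared with 1.44 ± 0.530 CPM in RbpjΔEC (SD, n = 3), with an adjusted p of 0.204 in the same test. Cpq (-0.01) and Gm49284 (0.13) overlapped between the groups. The exons of the 10 members share 0 bases with exons of other genes in GENCODE M21.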

How the data were processed

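RNA of sorted kidney ECs was analysed in 6 libraries, 3 CTRL and 3 RbpjΔEC, 1 per replicate and pooled for a common sequencing run. The authors aligned the reads to GRCm38.p6 with GENCODE annotation in the nf-core RNA-seq pipeline and deposited whole-number counts per gene without normalization. The submitters' processing notes name Trim Galore 0.6.4, STAR 2.6.1d and featureCounts of Subread 1.6.4. The strand setting of the counting is not given in the sources used here. Libraries were assigned by their labels, which number the replicates without naming mice. The paper gives 3 biological replicates per group. The p-values set the difference between the groups against the spread between these libraries.
The counts were scaled by TMM and fitted with edgeR 4.0.16 under R 4.3.3 (filterByExpr, estimateDisp, glmQLFit with robust estimation, glmQLFTest), with Benjamini-Hochberg adjustment over all 18438 tested genes. DESeq2 1.42.0 was the alternative test. A standard error is the size of the log2 fold change divided by the square root of F. The fit was tested on simulated data. Log2 CPM for profile likeness used a prior count of 2. Exonic lengths and positions came from GENCODE M21 (GRCm38), which holds 18411 of the tested genes; the authors counted on another release, so single positions can differ. Promoter sequences are from RefSeq. Members and gene lists were chosen with earlier results of these data known. Named were the members, called or highest family and pathway genes, the neighbours of Sema5a and the 5 most and least similar profiles; other genes were named after their values were seen. Alternatives covered scaling, filter, test, block and each library left out.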

Additional observations from a re-analysis of the deposited data

How the results depend on the processing

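Sema5a was called in edgeR's quasi-likelihood test or DESeq2's Wald test under all 12 alternatives of scaling, filter, test, block and libraries, and all 119 log2 fold changes of the 10 members under them (Sema3c was not tested above 1 CPM) stayed within 1 SD between libraries of the value given. Sema3c, whose libraries spread most, changed sign from 0.36 to -0.45 without RbpjΔEC 3, and Sema3f, Sema6a, Plxna2 and Plxnb2, all within 0.06 of 0, also changed sign when 1 library was left out. The 9 values of Sema5a relative to marker genes, chosen after seeing the data and not among these, lay between -0.73 and -0.03 and moved by more than 1 SD. The number of members called was 3 with no low-count filter (Sema5a, Sema3g and Sema7a), 2 with DESeq2's Wald test, 2 with the replicate block (Sema5a and Sema3g each time) and 1 to 3 without 1 library in turn. Of the other family genes 4 were called with no low-count filter (Nrp1, Plxnb1, Plxnc1 and Sema6d), 2 with DESeq2 and 0 without 1 library in turn, of the pathway genes 12 with no filter, 7 with DESeq2 and between 0 and 6 without 1 library. Over all genes 209 were called, 106 higher and 103 lower, against 1436 with no filter, 584 with DESeq2, 344 with the replicate block and between 21 (without RbpjΔEC 1) and 700 (without CTRL 2) when 1 library was left out, with 54 without CTRL 1, 24 without CTRL 3, 48 without RbpjΔEC 2 and 521 without RbpjΔEC 3. With library totals as the only scaling, 159 genes were called higher and 82 lower. The median of the members was between -0.089 (without RbpjΔEC 3) and 0.039 (without CTRL 1), and Sema5a relative to the other 9 members differed by between -0.88 and -0.70 without 1 library in turn. The cause of these changes was not tested. By a chi-square of the counts of each pair of libraries, CTRL 2 was at least as near to each RbpjΔEC library as to CTRL 1 and 3. The value per degree of freedom was 34.2, 39.1 and 27.4 against RbpjΔEC 1, 2 and 3, and 39.4 and 42.6 against CTRL 1 and 3. The part of CTRL 2 in the calls was not tested. The replicate numbers do not pair the libraries, since same-numbered libraries had correlations of 0.0231, 0.00916 and 0.00544 of their deviations from the group means, and 0 of 3 CTRL libraries correlated best with their own number. With 3 libraries against 3, and few reads on Sema3c, Snhg18 and Plxnb3, small differences of these genes were not detectable.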

Other observations

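The spread between CTRL libraries differed among the members. As a share of the mean, the SD over the 3 CTRL libraries was 3.87% for Sema5a, 3.93% for Plxna2, 5.09% for Plxnb2 and 5.68% for Sema3g, and 43.6% for Sema3c, which rests on few reads. In RbpjΔEC it was lowest for Sema6b (5.97%) and Sema3f (6.03%), followed by Sema5a (7.94%), and highest for Plxnd1 (20.3%), Sema3g (25.7%) and Sema3c (74.8%). These values use the groups singly and not the difference between them.
Several semaphorin and plexin genes of the family had low levels in these ECs. Sema3e, whose protein binds Plexin-D1 without a neuropilin, had 0.433 ± 0.0143 CPM in CTRL, compared with 0.250 ± 0.195 CPM in RbpjΔEC (SD, n = 3), Sema4d 1.54 ± 0.928 and 1.43 ± 1.13 CPM, and Sema4a 1.24 ± 0.606 and 1.26 ± 0.562 CPM.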
